A study of Mus musculus with 10 samples.

Results

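The genes described here encode the cytosolic heat shock proteins and their regulator: Hsf1, Hspa1a, Hspa1b, Hspa8, Hsp90aa1, Hsp90ab1, Hsph1, Dnaja1, Dnajb1 and Hspb1. They were taken by symbol from a count table of mouse liver mRNA. All 10 were among its 24421 genes, and 9 of the 10 had counts high enough to be tested. Hspa1a had too few and is given as counts. The data were RNA-seq counts from 5 Chow and 5 TM5614 livers of male wild-type mice fed ad libitum, aged 21 weeks by the labels, whose strain is C57BL/6 in the labels and C57BL/6J in the study's methods. TM5614, an oral inhibitor of plasminogen activator inhibitor-1 (PAI-1), was given in the chow at 20 mg/kg/day for 10 days, and the Chow mice had chow without it. The comparison asked how hepatic expression differed with the inhibitor.

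Heat shock proteins bind unfolded stretches of other proteins and keep them from aggregating. J-proteins load clients onto HSP70, HSP110 exchanges its nucleotide, HSP90 takes over clients such as steroid receptors and kinases, and small heat shock proteins hold unfolded proteins until HSP70 can act. HSF1 is held inactive by chaperones in resting cells and, when unfolded proteins draw them off, binds heat shock elements, inverted repeats of a short GAA unit, in the promoters of the inducible genes. Liver makes large amounts of the constitutive forms HSC70 (Hspa8) and HSP90β (Hsp90ab1).

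The promoters are shown first because the inducible genes of the family are known for these elements. RefSeq promoters (GRCm38.p6), each 250 bases before and 50 bases from a transcription start, were found by symbol for 6 of the 10 genes, namely Hspa1a, Hspa1b, Hsph1, Dnaja1, Dnajb1 and Hspb1. They were searched for GAANNTTCNNGAA and TTCNNGAANNTTC, which are each other's reverse complement and so cover both strands, and for the shorter GAANNTTC and TTCNNGAA, which lie inside the longer words. In the runs below, written 5′ to 3′ on the strand of the gene, capitals mark a 3-unit word with at most 1 of its fixed letters different or a 2-unit word with all of them.
Hspa1a: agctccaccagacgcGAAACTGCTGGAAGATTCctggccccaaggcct
Hspa1b: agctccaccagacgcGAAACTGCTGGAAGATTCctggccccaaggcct
Hspb1: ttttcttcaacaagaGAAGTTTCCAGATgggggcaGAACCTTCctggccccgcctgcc
Dnaja1: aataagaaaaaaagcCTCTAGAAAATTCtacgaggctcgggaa
Hsph1, before the start: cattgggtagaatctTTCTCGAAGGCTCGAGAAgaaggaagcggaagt
Hsph1, after the start: aatgctGCAGATTCTGGAAAGTTCt

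These runs lie at chr17:34972238-34972285 (minus strand) for Hspa1a, chr17:34959320-34959367 (minus) for Hspa1b, chr5:135887787-135887844 (plus) for Hspb1, chr4:40722324-40722366 (plus) for Dnaja1, and chr5:149636337-149636384 and chr5:149636287-149636311 (minus) for Hsph1. Hsph1 held a full 3-unit word, TTCTGGAAAGTTC, from base +37 to +49 of its more upstream start. A full 3-unit word was found at 0.662% of the 27025 symbols with a promoter. With 1 letter allowed to differ, 5 of the 6 genes held the word, against 8.15% of symbols, and the same 5 held a 2-unit word, against 17.0%. Neither Dnajb1 promoter held any of these words, and Dnaja1 held them at 1 of its 3 starts. The starts are those of RefSeq. The gene positions given below reach further upstream for Dnaja1 and Hsph1. The capitals of Dnaja1, and those of Hsph1 before the start, therefore lie inside those gene positions. The promoters of Hspa1a and Hspa1b differed at 4 of 300 bases, so their matches are not separate examples. A match is a description of these letters only.

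Library totals ran from 6398335 to 10874955 counts, and their difference between groups did not pass the test (exact permutation test, two-sided p = 0.325). Hepatocyte transcripts were abundant in every library (the CPM, counts scaled to a common library size, of 6 markers summed to between 88183 and 120671), none of the 39 tested genes among the 73 of 8 marker lists was called, and 4 globin genes were listed at 0 in every library. A pair of libraries stood apart. In Chow replicate 2, transcript GC content and length accounted for 46.0% of the variance, across genes, of the deviation from a gene's median over the 10 libraries, against 0.763% to 11.5% in the other libraries. In TM5614 replicate 2, the summed CPM of 22 skeletal muscle genes was 5518, and it was at most 114 elsewhere. The next highest was TM5614 replicate 3, which held 194 counts of Acta1 and 88 of Ttn, against at most 2 of either in any Chow library. Chow sums were 18.2 to 39.0 CPM. Values without Chow replicate 2 or TM5614 replicate 2 are given where a result rests on them. In bulk liver, fewer cells of a type and less RNA per cell cannot be told apart.

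Transcripts of 4 cytosolic heat shock proteins were higher in TM5614 livers. Of the 9 genes tested, Hspa8, Hsp90aa1, Hsph1 and Hspb1 rose, by 1.96-fold to 3.28-fold, and none fell (edgeR quasi-likelihood test, adjusted p under 0.05 over all 11092 genes tested). The background was 4.50% of all genes called, 1.73% higher and 2.77% lower in TM5614. The other 5 genes, Hsf1, Hspa1b, Hsp90ab1, Dnaja1 and Dnajb1, did not pass the test, and all 9 estimates were positive with a median log2 fold change of 0.97, where the median of all genes was 0.01. In Hspa8 and Hsp90aa1 every TM5614 library lay above every Chow library, as did 4.07% of all genes (8.93% did not overlap in either direction). Without Chow replicate 2, 5 of the genes were called, against 9.24% of all genes, and without TM5614 replicate 2, 4 were, against 3.33%. With both left out, 6 were called, against 11.1%. Without Chow replicate 4 or TM5614 replicate 3, only Hspa8 and Hsp90aa1 of the 9 remained called. The share of all genes called was then also lower, at 3.14% and 2.09%. By DESeq2 with all libraries, 6 of the genes were called, Hspa1b and Hsp90ab1 in addition, against 8.14% of all genes.

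**Figure D1:**
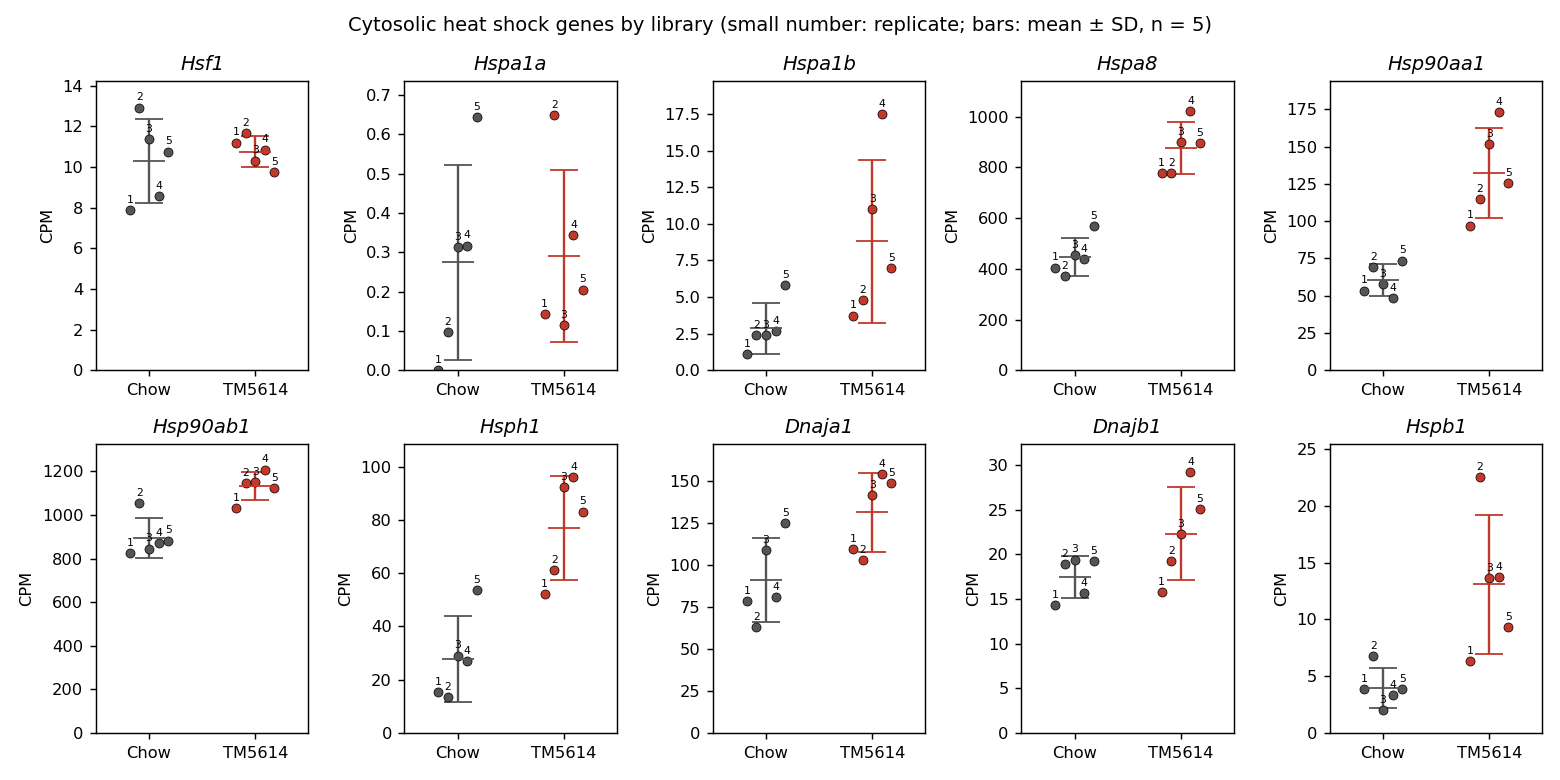
CPM (counts scaled to a common library size with TMM factors) of the 10 genes in each of 5 Chow and 5 TM5614 libraries, with the replicate number above each point and bars for mean ± SD. Hspa8 and Hsp90aa1 separate the groups fully, whereas all TM5614 values of Hsf1 lie inside its Chow range and the groups of Hspa1a overlap across most of their range.

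Per unit of length, Hsp90ab1 and Hspa8 were by far the most abundant of the 10. In Chow, their mean FPKM were 353 and 210. By mean FPKM over all 10 libraries, they ranked 125 and 148 among the 17291 genes with any count. Hsp90aa1 (20.9) and Dnaja1 (15.6) followed, then Hsph1 (7.88), Dnajb1 (5.36), Hsf1 (5.04) and Hspb1 (4.33), and each neighbouring pair from Hsp90aa1 to Hspb1 had overlapping ranges over the 5 libraries. The inducible genes Hspa1b (1.01) and Hspa1a (0.0966) were lowest. In TM5614, Hspa8 came closer to Hsp90ab1 (mean FPKM 411 and 445, with overlapping ranges). Within a library, Hspa8 was above Hsp90ab1 in TM5614 replicate 4 (483 and 478) and below it in every other TM5614 library. Also in TM5614, Hspb1 (14.3) moved above Dnajb1 (6.82) and Hsf1 (5.25). The 10 genes together took 0.153% ± 0.0141 of counts in Chow and 0.244% ± 0.0231 in TM5614 (SD, n = 5).

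The regulator did not pass the test. Hsf1 (chr15:76477422-76501913) encodes the heat shock transcription factor itself. Its CPM were 7.88, 12.9, 11.4, 8.56 and 10.8 in Chow replicates 1 to 5 and 11.2, 11.7, 10.3, 10.9 and 9.75 in TM5614. All TM5614 values fell inside the Chow range. The log2 fold change was 0.06 ± 0.15 (SE, adjusted p = 0.858), and its sign turned, to -0.04 and -0.01, without Chow replicate 1 and Chow replicate 4. Activity of HSF1 is set mainly on the protein, which was not measured.

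Among the HSP70 genes, the constitutive form rose. Hspa8 (chr9:40800984-40810087), the cytosolic HSC70 that folds new proteins and strips clathrin from vesicles, had CPM of 405, 370, 454, 440 and 567 in Chow and 779, 779, 901, 1024 and 896 in TM5614. The lowest TM5614 library was well above the highest Chow library. The mean went from 447 ± 74.6 to 876 ± 102 CPM (SD, n = 5), a log2 fold change of 0.97 ± 0.13 (adjusted p = 0.00169), and the call held under each of 22 alternatives. Of the 75-base runs in Hspa8 transcripts, 61.9% also occur in transcripts of other genes, chiefly the processed pseudogene Gm15459 (58.5%), and how such reads were counted is not given in the sources used here.

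Hspa1b (chr17:34956436-34959238) and Hspa1a (chr17:34969190-34972156) are single-exon genes for the stress-inducible HSP70, which lie on the minus strand with 9951 bases between them. Hspa1b CPM were 1.09, 2.41, 2.40, 2.69 and 5.80 in Chow and 3.73, 4.80, 11, 17.5 and 6.98 in TM5614. TM5614 replicates 1 and 2 were below Chow replicate 5, and every other TM5614 library was above all Chow libraries. The means were 2.88 ± 1.75 and 8.80 ± 5.60 CPM. By edgeR with all libraries, the log2 fold change was 1.59 ± 0.47 and did not pass the test (adjusted p = 0.0810). It did without Chow replicate 5 (2.04, adjusted p = 0.0374) and without both libraries that stand apart (1.66, adjusted p = 0.0430). With all libraries, it passed by DESeq2 (1.60, adjusted p = 0.0121). It also passed with a replicate block, alone (1.53, adjusted p = 0.0410) or with GC content and length corrected (1.71, adjusted p = 0.0207). It did not pass in the remaining 16 of 21 alternatives. Hspa1a had 0, 1, 3, 2 and 7 counts in Chow and 1, 5, 1, 3 and 2 in TM5614, too few to compare at this depth. Since 52.7% of the 75-base runs of Hspa1a also occur in Hspa1b, the pair was summed, which gave 3.15 ± 1.98 CPM in Chow and 9.09 ± 5.58 in TM5614 (log2 fold change 1.51 ± 0.46, adjusted p = 0.0949). The sum also passed the test without Chow replicate 5 (1.97, adjusted p = 0.0391). With all libraries, the sum passed by DESeq2 (1.52, adjusted p = 0.0194) and in either block fit.

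The HSP110 gene Hsph1 (chr5:149614287-149636376), whose product exchanges nucleotide on HSP70 and helps it dissolve aggregates, had CPM of 15.3, 13.6, 29.0, 27.1 and 53.7 in Chow and 52.3, 61.1, 92.3, 96.2 and 83.1 in TM5614. Chow replicate 5 lay just above TM5614 replicate 1, and there was no other overlap. Its mean rose from 27.7 ± 16.1 to 77.0 ± 19.4 CPM (log2 fold change 1.47 ± 0.34, adjusted p = 0.0293). The call was lost without Chow replicates 1 (adjusted p = 0.0575), 3 (0.0695) or 4 (0.0682) and without TM5614 replicates 3 (0.0867), 4 (0.0824) or 5 (0.0658), each left out alone. None of its 75-base runs occur in another gene.

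Of the HSP90 genes, Hsp90aa1 rose and Hsp90ab1 did not pass the test by edgeR with all libraries. Hsp90aa1 (chr12:110690605-110702728), the stress-responsive HSP90α, had CPM of 53.4, 69.0, 57.6, 48.3 and 73.5 in Chow and 96.9, 115, 151, 173 and 126 in TM5614. The groups did not overlap. The mean rose from 60.4 ± 10.6 to 132 ± 30.2 CPM (log2 fold change 1.13 ± 0.17, adjusted p = 0.00315), and the call held under each of 22 alternatives. Of its 75-base runs, 45.4% occur in other genes, chiefly the pseudogenes Gm12346 (38.5%) and Gm5844 (23.5%).

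Hsp90ab1 (chr17:45567775-45573271), the constitutive HSP90β, had CPM of 823, 1055, 846, 869 and 882 in Chow and 1032, 1148, 1149, 1208 and 1125 in TM5614. Only Chow replicate 2, a library that stands apart in GC content and length, reached the TM5614 range. The means were 895 ± 92.1 and 1132 ± 64.1 CPM. By edgeR, the log2 fold change was 0.34 ± 0.10 (adjusted p = 0.0835) with all libraries and 0.40 (adjusted p = 0.00586) without Chow replicate 2. With all libraries, it passed by DESeq2 (0.34, adjusted p = 0.0123) and limma-voom (0.40, adjusted p = 0.00255). It also passed with library totals (0.39, adjusted p = 0.0439) and with GC content and length corrected (0.38, adjusted p = 0.00948). It passed in 7 of 22 alternatives and not in the other 15. Only 0.664% of its 75-base runs occur in another gene.

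Counted within each library, Hsp90aa1 reached 6.48, 6.54, 6.81, 5.56 and 8.33 counts per 100 Hsp90ab1 counts in Chow and 9.39, 9.99, 13.2, 14.3 and 11.2 in TM5614. This ratio does not depend on the scaling of libraries, and it was higher in every TM5614 library than in every Chow library. The log2 difference was 0.78 (exact permutation test, two-sided p = 0.00794, the smallest that 252 arrangements allow, 0.0159 after Benjamini-Hochberg adjustment over the 2 ratios). The corresponding ratio of inducible to constitutive HSP70, Hspa1b per 100 Hspa8 counts, was 0.270 to 1.02 in Chow and 0.479 to 1.71 in TM5614. Those ranges overlapped, and the log2 difference of 0.61 did not pass the test (exact permutation p = 0.214, adjusted p = 0.214). On leaving out 1 library it ran from 0.34 (without Chow replicate 1) and 0.36 (without TM5614 replicate 4) to 0.82 (without Chow replicate 5). Neither ratio was corrected for GC content or length. With that correction, the fitted log2 fold changes of Hsp90aa1 and Hsp90ab1 were 0.97 and 0.38, against 1.13 and 0.34 without it. Without Chow replicate 2, the log2 difference of the HSP90 ratio was 0.77. Both ratios were chosen after the values of the genes were seen.

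**Figure D2:**
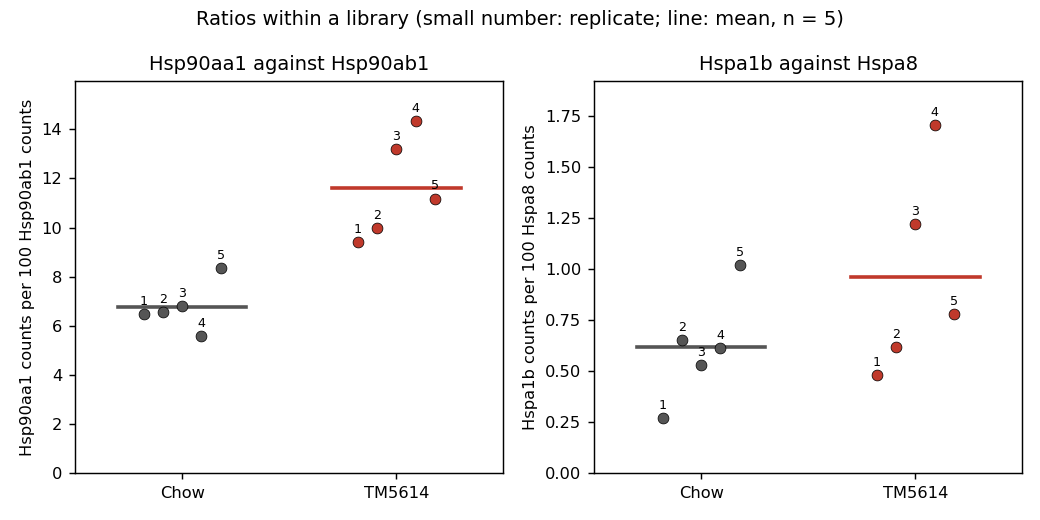
Counts of Hsp90aa1 per 100 counts of Hsp90ab1 (left) and of Hspa1b per 100 counts of Hspa8 (right) in each library, with the replicate number above each point and a line at the mean of 5. The HSP90 ratio separates the groups (at most 8.33 in Chow, at least 9.39 in TM5614), and the HSP70 ratio does not.

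The J-proteins, which bring clients to HSP70 and start its ATPase cycle, did not pass the test. Dnaja1 (chr4:40722150-40737149) had CPM of 78.5, 63.0, 109, 81.0 and 125 in Chow and 109, 103, 142, 154 and 149 in TM5614. Its groups overlapped in the middle of the range, with a log2 fold change of 0.53 ± 0.19 (adjusted p = 0.149), and 15.6% of its 75-base runs occur in other genes. Dnajb1 (chr8:83608193-83612653), the HSP40 partner of inducible HSP70, had CPM of 14.3, 18.9, 19.4, 15.7 and 19.2 in Chow and 15.8, 19.2, 22.2, 29.3 and 25 in TM5614. TM5614 replicates 3 to 5 were above all Chow libraries and the other two were within them (log2 fold change 0.35 ± 0.17, adjusted p = 0.266).

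Hspb1 (chr5:135887919-135889563), the small heat shock protein HSP25, rose with the highest fitted fold of the 9 genes when all libraries were used. CPM were 3.88, 6.75, 1.98, 3.33 and 3.86 in Chow and 6.32, 22.6, 13.6, 13.7 and 9.34 in TM5614. Chow replicate 2 lay just above TM5614 replicate 1. The mean rose from 3.96 ± 1.74 to 13.1 ± 6.14 CPM, a log2 fold change of 1.71 ± 0.36 (adjusted p = 0.0183). The highest library, TM5614 replicate 2, was the one richest in skeletal muscle transcripts. That library also held 262 counts of Hspb7, against 0 to 5 elsewhere, and 193 of Cryab, against 14 to 49, both small heat shock protein genes of muscle. Without it, Hspb1 was still called (log2 fold change 1.42, adjusted p = 0.0398), but Hspa1b (1.74) and Hsph1 (1.54) then had higher estimates, as did Hspa1b (2.04) and Hsph1 (1.86) without Chow replicate 5 (Hspb1 1.70). The call was lost without Chow replicate 4 (adjusted p = 0.0515) or TM5614 replicate 3 (0.0513). Of its 75-base runs, 46.4% occur in another gene, the pseudogene Hsp25-ps1.

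The order of libraries recurred from gene to gene. TM5614 replicate 4 was the highest of its group for 7 of the 9 tested genes and TM5614 replicate 1 the lowest for 7. In Chow, replicate 5 was the highest for 5. Pearson correlation of each gene with the mean of the other 8, over the 10 libraries, was highest for Hsp90aa1 (0.97) and lowest for Hsf1 (0.29). The points share their libraries and the group difference, so this is a description.

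By the same measure, the genes most like the family mean among 8589 candidates were Ahsa1 (0.96), Tmem248 (0.95), Skp1a (0.95), Creld2 (0.95), Ncoa5 (0.95), Tor1b (0.94), Kctd6 (0.94) and Tcp1 (0.93). Ahsa1 encodes the activator of the HSP90 ATPase, Tcp1 is a subunit of the cytosolic chaperonin, and Creld2 is a protein of the endoplasmic reticulum.

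**Figure D3:**
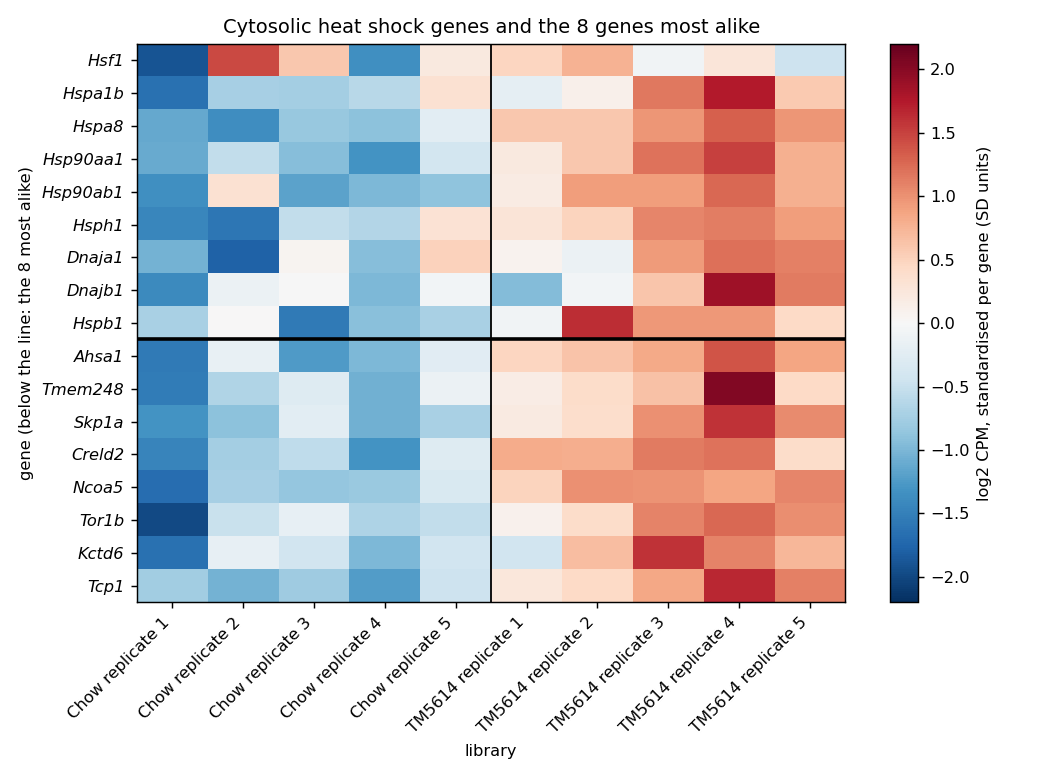
Log2 CPM of the 9 tested genes (above the line) and of the 8 genes most like their mean (below it), standardised per gene, in each of the 10 libraries. TM5614 replicate 4 is the highest of its group in 7 of the 9 genes, and Hsf1 does not follow the others.

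The wider cytosolic chaperone network, 74 other genes of which 66 were tested, held 3 genes that rose and none that fell, or 4.55%, near the 4.50% of all genes. Of the 66 estimates, 47 were positive (71.2%, against 51.5% of all genes), with a median log2 fold change of 0.21. The number called ran from 0 to 16 over the alternatives, while the number of all genes called ran from 184 to 1386. Leaving out Chow replicate 2 raised the network number to 11, with 9.24% of all genes called. The network number was 1 without Chow replicate 1, 3 or 4 or TM5614 replicate 1 or 2. It was 0 without TM5614 replicate 3 (2.09% of all genes called) or 4. Some of these calls were lower in TM5614: Fkbp5, an HSP90 co-chaperone (log2 fold change -0.88, adjusted p = 0.0650 with all libraries), was called without Chow replicate 2 or TM5614 replicate 5.

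Estimates for the co-chaperones of HSP90 lay on both sides of 0. Ahsa1 was the only called gene of 17, with CPM of 54.5, 69.4, 57.5, 60.2 and 68.4 in Chow and 77.7, 79.7, 82.6, 91.1 and 83.2 in TM5614 (log2 fold change 0.42 ± 0.10, adjusted p = 0.0417). Its groups did not overlap, and the call was lost when any single library other than Chow replicate 2 was left out (adjusted p 0.0501 to 0.125). Estimates of the 17 were positive in 8 and negative in 9 (median -0.02).

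The chaperonin TRiC/CCT, the ring that folds actin and tubulin, had positive estimates for all 8 subunits (median 0.27), 5 of them with every TM5614 library above every Chow library, where 51.5% of all genes had a positive estimate and 4.07% such a separation. Cct3 rose, with CPM of 68.5, 80.7, 70.5, 78.7 and 71.2 in Chow and 92.6, 99.8, 114, 117 and 104 in TM5614 (log2 fold change 0.51 ± 0.10, adjusted p = 0.0146). That call was lost without TM5614 replicate 3 (adjusted p = 0.0547) or 4 (0.0522). Tcp1 rose from 121 ± 5.41 to 158 ± 13.5 CPM (log2 fold change 0.38 ± 0.09, adjusted p = 0.0429), a call lost when any library but Chow replicate 2 was left out (adjusted p 0.0609 to 0.130) and, at 0.18, with GC content and length corrected (adjusted p = 0.378).

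No gene was called by edgeR among the 5 other HSP70 and HSP110 genes tested (2 at unadjusted p under 0.05, median log2 fold change 0.38), the 16 other J-proteins (2, median 0.10), the 10 HSP70 exchange factors and co-chaperones (1, median 0.23), the 4 other small heat shock proteins (1, median 0.45), the 6 prefoldin subunits (1, median -0.27) or the 6 other heat shock factors and HSF1 partners (3, median 0.04). Of all 11092 genes tested, 2263 were at unadjusted p under 0.05, so these counts are not read as a response. By DESeq2, 10 of the 66 network genes were called, against 8.14% of all genes (900 of 11061), and 1 of the 10, Fkbp5, was lower.

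Other compartments were set beside the cytosol. Of 17 chaperones of the endoplasmic reticulum, 7 rose and none fell (41.2%, against 4.50% of all genes called, median log2 fold change 0.50). That share is close to the 44.4% called among the 9 tested cytosolic heat shock genes. Hspa5, the HSP70 of that compartment known as BiP, went from 555 ± 105 to 1079.9 ± 165 CPM (log2 fold change 0.96 ± 0.15, adjusted p = 0.00411), close in size to Hspa8. Its HSP90, Hsp90b1, went from 787 ± 62.3 to 1115 ± 132 CPM (0.50 ± 0.11, adjusted p = 0.0230). Creld2 (1.16), Manf (0.78), Hyou1 (0.73), Dnajb11 (0.60) and Pdia3 (0.44) also rose by the log2 fold changes given. Hspa5, Creld2, Manf and Dnajb11 were called under each of 22 alternatives, which do not include the threshold of 0.01. At that threshold Manf (adjusted p = 0.0129) was not called. On leaving out 1 library, the call was lost for Hsp90b1 in 5 cases (without Chow replicates 3 or 4 and TM5614 replicates 1, 3 or 4, adjusted p 0.0515 to 0.0726), for Hyou1 in 7 (all but Chow replicates 2 and 5 and TM5614 replicate 5, 0.0536 to 0.138) and for Pdia3 in 9 (all but Chow replicate 2, 0.0512 to 0.118).

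Among 12 mitochondrial chaperones and proteases, Clpx, the unfoldase of the ClpXP protease, rose from 100 to 288 CPM (log2 fold change 1.52, adjusted p = 0.00175), and the median of the list was 0.04. The RNA-binding proteins Cirbp and Rbm3, which are raised by cold, were not called (log2 fold changes -0.56 and -0.02, adjusted p = 0.237 and 0.962), and without Chow replicate 2 Cirbp was at -0.34 and Rbm3 at -0.21. None of 10 immediate early genes passed the test (1 at unadjusted p under 0.05, as were 2263 of all 11092 genes, median -0.17).

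**Figure D4:**
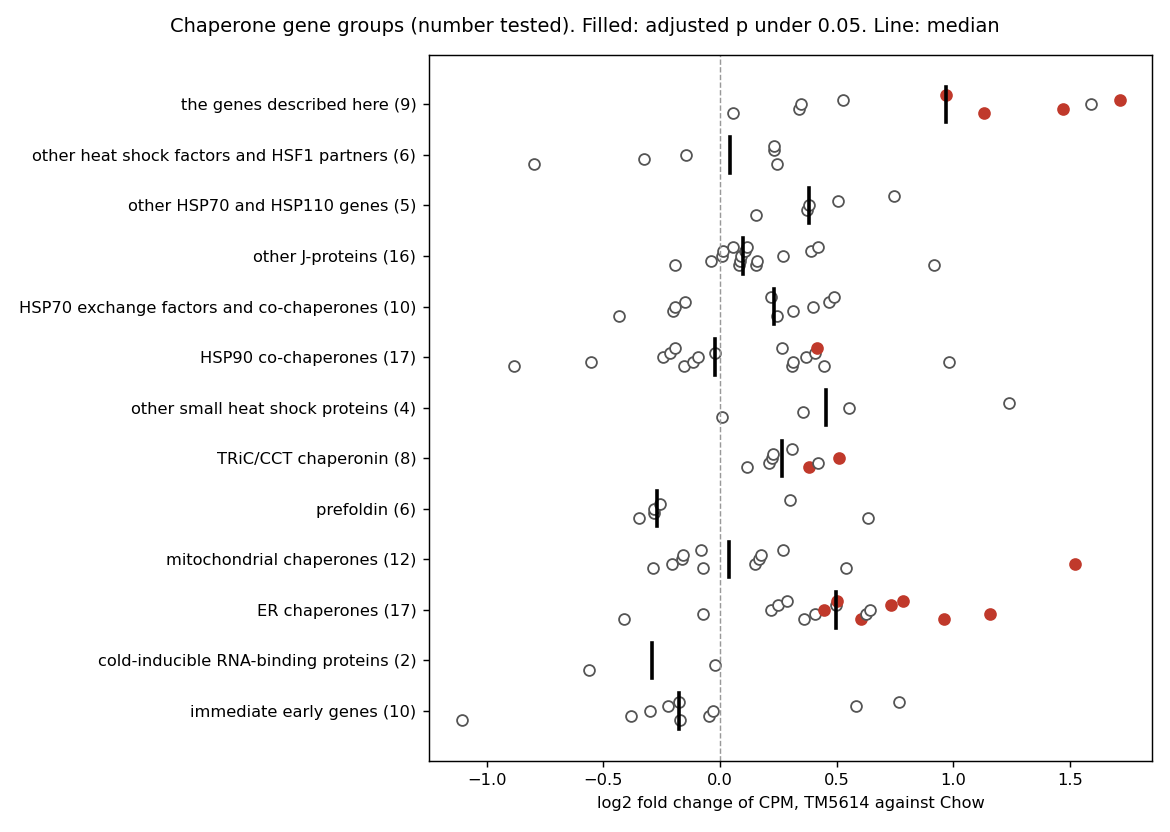
Log2 fold change of CPM, TM5614 against Chow, for every tested gene of 13 gene lists, with the number tested in brackets, filled points for genes with an adjusted p under 0.05 and a line at each list's median. The genes described here have the highest median (0.97), followed by the chaperones of the endoplasmic reticulum (0.50).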

How the data were processed

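Per the labels, RNA came from flash-frozen liver, whereas the study's methods describe a portion placed in RNAlater. Poly(A) libraries were made with a KAPA mRNA HyperPrep kit, and the submitters' processing notes name STAR, HOMER, DESeq2 and the build mm10. The authors deposited raw counts per gene, used here for every test, and FPKM values, whose divisors between libraries equal DESeq2 size factors and which were used only to compare levels between genes. Deposited log-transformed values and a table of the authors' own fold changes and p-values were not used.

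Counts were fitted with edgeR 4.0.16 (R 4.3.3), using TMM factors, filterByExpr and the quasi-likelihood test of TM5614 against Chow, 5 libraries each. P-values were adjusted by Benjamini-Hochberg over 11092 genes with a threshold of 0.05. CPM used TMM-scaled totals, log2 CPM a prior count of 2, and fold changes are model estimates. Alternatives were DESeq2 1.42.0, limma 3.58.1 with voom and quality weights, other scalings and filters, a robust fit, correction for GC content and length, a replicate block, a threshold of 0.01 and each library left out. The 22 alternatives counted for a single gene do not include the threshold of 0.01. The scripts were tested on simulated data. Leaving out both libraries that stand apart, and the ratios, were added after seeing the data. The genes and lists were chosen with earlier results of these data known. The genes named are the 10, every called gene of the other lists, the 2 cold-inducible genes and the 8 most alike with a mean of at least 50 counts, while Hspb7, Cryab, Fkbp5 and Fkbp8 were chosen after their values were seen. Gene positions are from GENCODE M21 (GRCm38, the same assembly as mm10), from which shared 75-base runs were also counted.

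The labels number mice separately, so each library is 1 animal. Totals of 6398335 to 10874955 counts set the precision. The spreads given are SDs over the libraries of a group or SEs of the fit. No strand setting or handling of shared reads is given in the sources used here.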

Additional observations from a re-analysis of the deposited data

Results flagged for a closer look

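Among 18 groups of 5 libraries (9 genes in Chow and in TM5614), 1 held a library far from the rest by Dixon's test, where chance gives about 1 in 20 groups. Hsp90ab1 was at 1055 CPM in Chow replicate 2 and between 823 and 882 CPM in the other Chow libraries.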

How the results depend on the processing

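Hspa8 and Hsp90aa1 kept their direction and call under each of 22 alternatives, and the number of the 10 genes called stayed within 1.5 times of 4 except at a threshold of 0.01 (2) and, on leaving out 1 library (2 to 5), without Chow replicate 4 or TM5614 replicate 3. Called genes of the wider cytosolic network numbered 10 with DESeq2, 16 with limma-voom, 5 with library totals, 1 without a filter, 6 with GC content and length corrected, 8 with that correction and a replicate block, 0 at a threshold of 0.01 and 15 without both libraries that stand apart, and 0 to 11 on leaving out 1 library. Fkbp5 was lower among those called with DESeq2, limma-voom, either block fit, and without both libraries, and Fkbp8 with limma-voom and without both libraries. All genes called numbered 900 with DESeq2, 1386 with limma-voom, 751 with the block and correction, 184 at 0.01 and 1230 without both libraries, and 235 to 1031 on leaving out 1 library. The cause was not tested. Summed Hspa1a and Hspa1b passed the test with DESeq2 (log2 fold change 1.52), with the replicate block (1.47) and with the block and correction (1.66), and ranged from 1.12 to 1.97 on leaving out 1 library. Hsp90ab1 passed it in 7 of 22 alternatives, Hspa1b in 5 of 21 and Dnaja1 with the block alone. Hsf1 ran from -0.038 to 0.14 on leaving out 1 library. Rbm3 was 0.022 with library totals, 0.043 with the replicate block and -0.21 to 0.093 on leaving out 1 library.

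Replicate numbers did not pair the samples: deviations of same-numbered libraries correlated at 0.03 to 0.32, and only 1 of 5 Chow libraries correlated best with the TM5614 library of its own number. With the block, 6 of the 10 genes were called, Hspa1b and Dnaja1 in addition, against 5.00% of all genes (555). It also called Cirbp (-0.51, adjusted p = 0.0410) and lost Ahsa1 (adjusted p = 0.0615), Tcp1 (0.0783) and Pdia3 (0.0529). Hspa1b and the sum had no value under the filter of 10 counts in every library. Depth limits Hspa1a, with 25 counts over 10 libraries.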
